A study of Mus musculus with 5 samples.

Results

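The nuclear genes of respiratory complexes III, IV and V were read from an RNA-seq table of mouse embryos at the 2-cell stage. The genes described here are the rows whose symbol began with Uqcr, Cox4 to Cox8 or Atp5, together with Cyc1 and Cycs. This gave 45 of the 32285 genes in the table: 9 of complex III, 18 of complex IV, 17 of complex V and the electron carrier cytochrome c. Assembly factors without these prefixes were described as lists of their own.

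The treated group was 3 libraries of embryos cultured with 25 nM PNMC, an abbreviation that the labels do not spell out. The control group was 2 libraries of embryos given DMSO, the solvent, at an equal volume. All embryos came from superovulated females aged 6 to 9 weeks, were fertilised in vitro for about 6 h with sperm of males aged 12 to 16 weeks, and were cultured in KSOM medium for 24 h. The sources used here name no strain, no number of embryos per library and no separate cultures, so the spread between libraries may be technical. The design holds 1 comparison, PNMC against control.

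In oxidative phosphorylation, complex III passes electrons from ubiquinol to cytochrome c, complex IV passes them on to oxygen, and both move protons across the inner mitochondrial membrane. Complex V, the ATP synthase, uses the returning protons to make ATP. Each of these complexes also contains subunits made from the mitochondrial genome, while the nucleus supplies all the others, among them tissue-specific isoforms of complex IV. Early mouse embryos rely on mitochondria inherited from the oocyte and on the oxidation of pyruvate.

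The deposited values are normalised expression levels of unstated unit, called levels here, and the number of reads behind a value cannot be recovered. Levels summed to between 446010 and 454548 in PNMC libraries, against 446466 and 447155 in control libraries 1 and 2. Genes above 0 numbered 17408 to 17608 in PNMC libraries, against 17635 and 18595 in control libraries 1 and 2. Whether levels are scaled by transcript length could not be settled from the values, so levels of different genes are quoted as deposited. The label was checked against 12 oocyte and 2-cell markers, none of them at 0, whose levels summed to between 8602 and 9305 in PNMC libraries and between 8539 and 8932 in control libraries. Btg4 and Dppa3, with means of 3561 and 3220 over the 5 libraries, made up most of these sums. Zscan4d, Zfp352, Usp17la and Gm8300 averaged 159, 265, 26.4 and 206. Of 12 cumulus and granulosa markers, Ptx3, Amh, Foxl2 and Inhba were listed at 0 throughout, and the list summed to between 22.5 and 33.0 in PNMC libraries and between 28.3 and 31.1 in control libraries. Most of that sum was Amhr2, at 18.2, 26.1 and 17.1 in the PNMC libraries, against 22.7 and 21.6 in the control libraries, and Cyp19a1 was also above 0 in every library, at 3.37, 4.03 and 2.69 in the PNMC libraries, against 3.96 and 2.46 in the control libraries. Of 6 blood and immune markers, Cd3e was listed at 0, and the list summed to between 9.43 and 12.4 in PNMC libraries and between 9.18 and 10.3 in control libraries. Hba-a1 had 4.57, 8.09 and 5.77 in the PNMC libraries, against 7.16 and 8.29 in the control libraries. The macrophage marker Cd68 had 4.52, 3.92 and 3.83 in the PNMC libraries, against 2.23 and 0.852 in the control libraries, all PNMC values above both controls, a change of 1.06 (SE 0.361, limma adjusted p = 0.967), and its part in the members' values was not tested. The markers given with values, here and beside Cox6b2, were picked after their values were seen. In bulk embryos, fewer cells and less RNA per cell cannot be told apart.

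A gene was tested when 2 or more of the 5 libraries had a level of at least 1, which kept 12734 genes and 41 of the 45 members. The 4 members below this, Cox8b, Cox7b2, Cox8c and Cox4i2, were all isoforms of complex IV. Changes are differences of log2(level + 1), PNMC minus control, from limma's moderated test, and understate the change of genes with low levels. P-values were adjusted by Benjamini-Hochberg over all tested genes.

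For no member did PNMC and control embryos differ past the threshold of 0.05, and the lowest adjusted limma p was 0.967. The share of all tested genes past it was 0%. Without adjustment, 2 of 41 members had a limma p under 0.05, or 4.88%, against 4.99% of the genes tested. Both, Uqcrb and Cox6a1, had the lower mean in PNMC. Of all genes tested, 3.27% had such a p with a lower level in PNMC and 1.73% with a higher one. All 3 PNMC levels lay below both control levels in 5 members, Uqcrb, Cox6a1, Atp5f1, Atp5j and Cycs, as in 11.9% of the genes tested. They lay above both in 3 members, Uqcr11, Cox5a and Atp5a1, as in 7.97% of the genes tested. These 8 members were 19.5% of the 41, against 19.9% of the genes tested, so the counts of separated groups were near the background.

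The fitted change was below 0 in 32 members and above 0 in 9, with a median of -0.19. Changes below 0 made up 78.0% of the members, against 56.9% of the genes tested, whose median was -0.048. Complex III had 7 of 9 below 0, with a median of -0.26. Complex V had 14 of 17 below 0, with a median of -0.20. Complex IV had 10 of 14 below 0, with a median of -0.060, near that of all genes, and after every library was scaled to the same median it had 6 of 14 below 0 and a median of 0.025. That scaling moved the median of all genes to 0.027, that of complex III to -0.18 and that of complex V to -0.13.

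**Figure D1:**
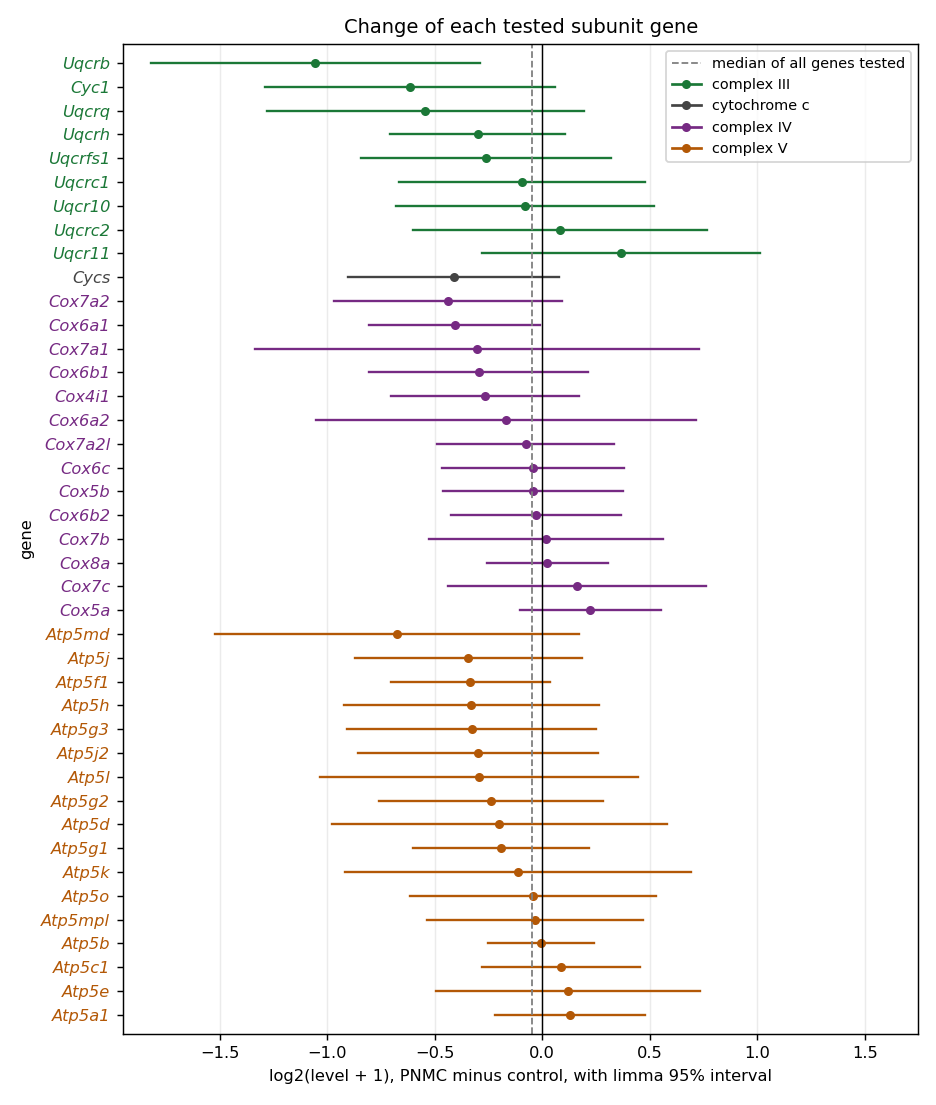
Change in log2(level + 1), PNMC minus control, of the 41 tested genes (points) with limma's 95% intervals (bars), grouped by complex; the median of all tested genes is -0.048. Most points lie below 0, and the intervals of Uqcrb and Cox6a1 lie wholly below 0.

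Taken over all members, the lean below 0 depended on PNMC library 3 and control library 2, and stayed when another library was left out. The single complexes differed in this. Complex IV had 7 of 14 below 0 without PNMC library 1, with a median of 0.0028, against -0.043 in all genes. Complex III kept 7 of 9 below 0 without control library 2. Without PNMC library 1 or 2, changes were below 0 in 70.7% and 82.9% of members, against 55.9% and 55.6% of all genes. Without control library 1 they were below 0 in 78% of members, against 58.8% of all genes. PNMC library 3 had the lowest level of the 5 libraries in 26 of 41 members, or 63.4%, against 22.03% of the genes tested. Control library 2 had the highest level in 20 members, or 48.8%, against 24.7% of the genes tested. Without PNMC library 3, changes were below 0 in 23 of 41 members, or 56.1%, against 55.6% of the genes then tested. The medians without it were -0.085 in complex III, -0.034 in complex IV, -0.049 in complex V and -0.040 in all genes. Without control library 2, changes were again below 0 in 23 of 41 members, against 53.4% of the genes then tested. The medians without that library were -0.31 in complex III, 0.019 in complex IV, -0.099 in complex V and -0.030 in all genes.

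The position of each complex in the single libraries was read as the median deviation of its genes from their means over the 5 libraries. Complex III stood at 0.0094, 0.14 and -0.50 in PNMC libraries 1, 2 and 3, against 0.10 and 0.36 in control libraries 1 and 2. Complex IV stood at 0.058, 0.25 and -0.23 in the PNMC libraries, against -0.044 and 0.091 in the control libraries. Complex V stood at 0.085, 0.083 and -0.34 in the PNMC libraries, against 0.010 and 0.25 in the control libraries. In all 3 complexes PNMC library 3 was lowest, while PNMC library 2 lay above control library 1, so the groups overlapped. Over all members the deviations were 0.054, 0.15 and -0.34 in the PNMC libraries, against 0.0039 and 0.22 in the control libraries. Complex I stood at -0.030, 0.084 and -0.29 in the PNMC libraries, against -0.029 and 0.28 in the control libraries, with the same libraries at the ends.

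**Figure D2:**
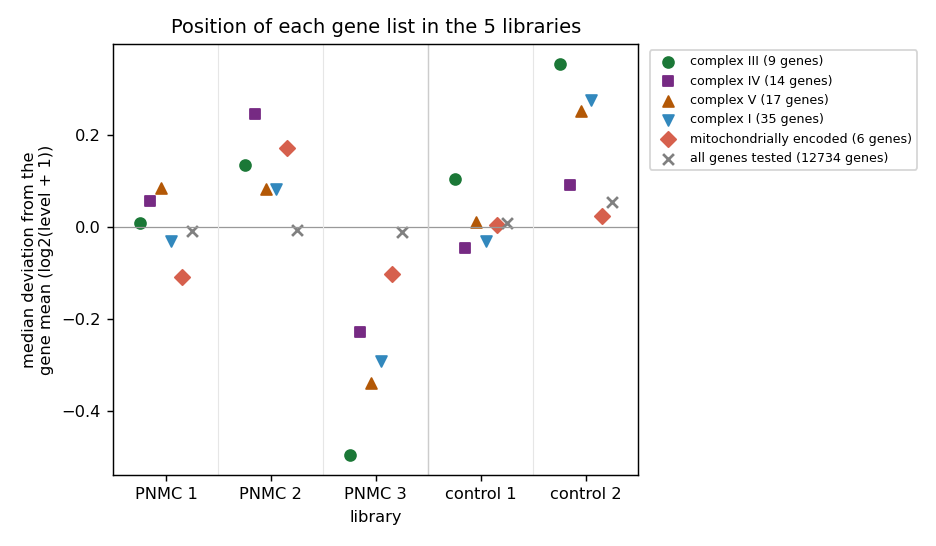
Median deviation of each gene list from the gene means (log2(level + 1), y axis) in PNMC libraries 1 to 3 and control libraries 1 and 2 (x axis), for the nuclear genes of complexes III, IV, V and I, the mitochondrially encoded subunits and all tested genes. Complexes III, IV, V and I are lowest in PNMC library 3, where complex III stands at -0.50.

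Short transcripts as a class were also low in PNMC library 3. The 227 tested genes with coding transcripts shorter than 600 bases had a median deviation of -0.033, 0.14 and -0.17 in PNMC libraries 1, 2 and 3, against 0.023 and 0.17 in control libraries 1 and 2. In PNMC library 3 the 4679 genes of 2000 to 4000 bases stood at 0.0075. Among the members, PNMC library 3 stood at -0.40 for the 16 shorter than 600 bases, -0.37 for the 12 of 600 to 1000 bases, -0.12 for the 9 of 1000 to 2000 bases and -0.30 for the 3 longer ones. Over the 40 members with a length, which share these libraries, Spearman's rho between length and deviation was -0.48, -0.012 and 0.25 in PNMC libraries 1, 2 and 3, against 0.24 and -0.11 in control libraries 1 and 2, so control library 1 had nearly the same rho as PNMC library 3. The part of transcript length in these differences was not tested.

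Complex III rests on the large core proteins Uqcrc1 and Uqcrc2, and its nuclear-encoded electron carriers are the Rieske iron-sulphur protein Uqcrfs1 and cytochrome c1, Cyc1. Uqcrc2 had levels of 13.0, 16.1 and 12.9 in PNMC libraries 1, 2 and 3, against 8.17 and 20.7 in control libraries 1 and 2. The controls stood on either side of all PNMC values, and the change was 0.082 (SE 0.318, limma adjusted p = 0.993). Uqcrc2 shares exon sequence with Pdzd9 on the other strand, and the library method keeps no strand, so reads from that overlap, where 24.8% of the 50-base windows of Uqcrc2 are shared, cannot be told apart. Uqcrfs1 had 14.8, 15.3 and 9.22 in the PNMC libraries, against 18.2 and 13.2 in the control libraries, a change of -0.26 (SE 0.270, limma adjusted p = 0.993). Cyc1 had 6.36, 10.4 and 5.15 in the PNMC libraries, against 9.23 and 13.8 in the control libraries, a change of -0.61 (SE 0.313, limma adjusted p = 0.987). For Uqcrfs1, PNMC libraries 1 and 2 lay between the controls, and for Cyc1, PNMC library 2 did. The change of Uqcrfs1 was -0.042 without PNMC library 3, -0.044 without control library 1 and -0.48 without control library 2. That of Cyc1 was -0.35 without control library 2 and -0.88 without control library 1. Uqcrc1 averaged 10.4 ± 0.332 in PNMC and 11.5 ± 4.04 in controls (SD, n = 3 and 2).

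Among the small subunits of complex III were the largest fitted change of all members and the highest level of that complex. Uqcrb, which binds near the ubiquinone site, had levels of 3.46, 2.55 and 1.36 in PNMC libraries 1, 2 and 3, against 5.70 and 6.19 in control libraries 1 and 2. All PNMC values lay below both controls, with means of 2.45 ± 1.05 in PNMC and 5.94 ± 0.343 in controls (SD, n = 3 and 2). The change was -1.05 (SE 0.356, 95% interval -1.82 to -0.29, limma adjusted p = 0.967). With 1 library left out it ranged from -1.26 without PNMC library 1 to -0.80 without PNMC library 3. Uqcrb had the lowest mean level of the complex, and 43.4% of its 50-base windows also occur in transcripts of other genes, most of all Gm16089, so its level is uncertain.

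Uqcrq and Uqcrh, the hinge protein that contacts cytochrome c1, showed the library pattern described above. Uqcrq had 8.03, 9.59 and 3.80 in the PNMC libraries, against 8.55 and 12.2 in the control libraries, a change of -0.54 (SE 0.343, limma adjusted p = 0.993). Uqcrh had 49.0, 48.5 and 37.7 in the PNMC libraries, against 48.9 and 62.6 in the control libraries, a change of -0.30 (SE 0.190, limma adjusted p = 0.993). In both, the groups overlapped, with PNMC library 3 lowest and control library 2 highest. Without PNMC library 3 the change was -0.20 for Uqcrq and -0.18 for Uqcrh, and without control library 2 it was -0.31 for Uqcrq and -0.12 for Uqcrh. Without control library 1 it was larger, at -0.78 for Uqcrq and -0.48 for Uqcrh. Uqcr11, singled out after its values were seen, had 7.96, 5.41 and 5.32 in the PNMC libraries, against 4.31 and 4.76 in the control libraries. All PNMC values lay above both controls, opposite to Uqcrb, with a change of 0.37 (SE 0.301, limma adjusted p = 0.993). Uqcr10 averaged 11.7 ± 3.28 in PNMC and 12.2 ± 2.25 in controls (SD, n = 3 and 2).

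Cytochrome c carries electrons from complex III to complex IV and, once released into the cytosol, takes part in caspase activation. Its somatic gene Cycs had levels of 16.2, 16.8 and 14.2 in PNMC libraries 1, 2 and 3, against 17.8 and 25.2 in control libraries 1 and 2. All PNMC values lay below both controls, PNMC library 2 by the smallest margin, and the change was -0.41 (SE 0.229, limma adjusted p = 0.993). Without control library 2 it was -0.17, and without control library 1 it was -0.65. Other genes' transcripts hold 28.5% of the 50-base windows of Cycs, so its level is uncertain too.

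**Figure D3:**
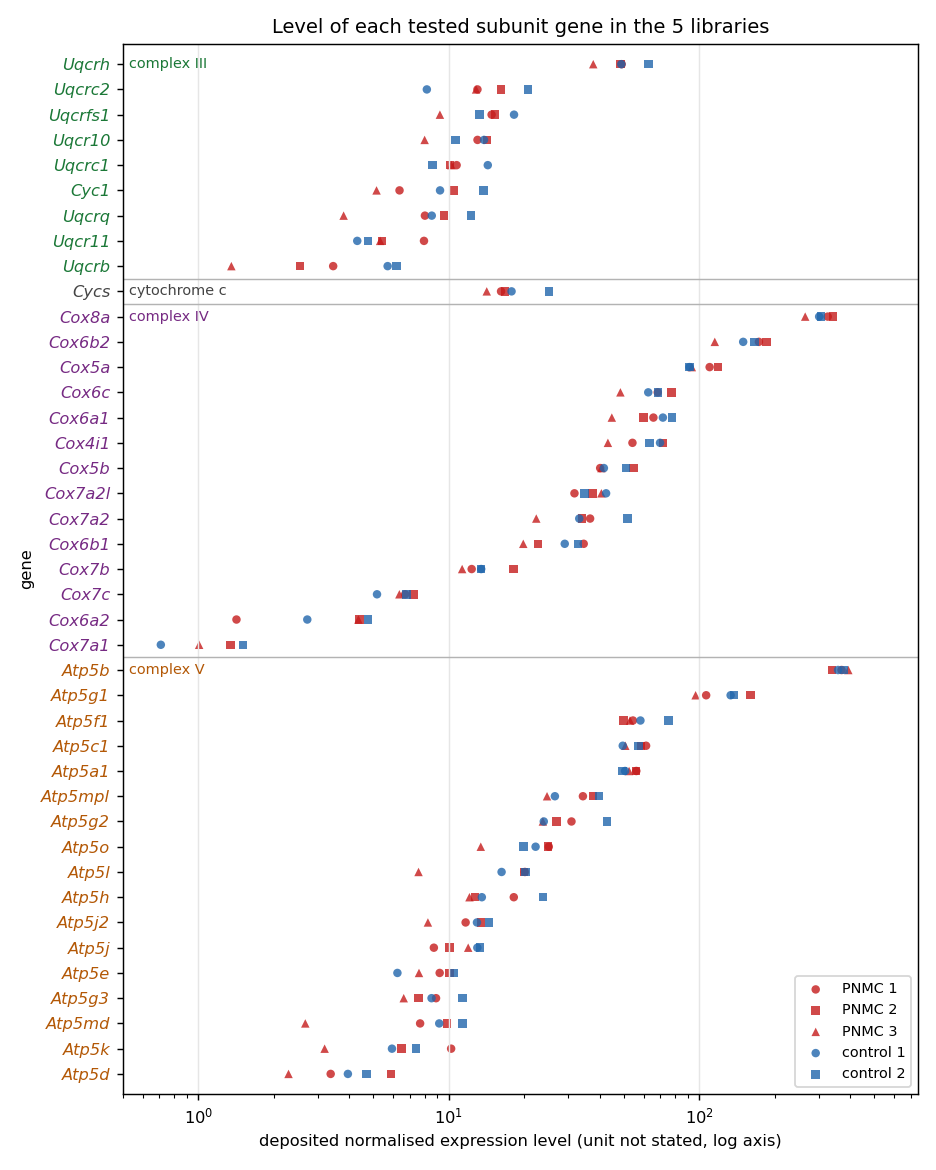
Deposited level (log axis, unit not stated) of each tested gene in the 3 PNMC and 2 control libraries, grouped by complex; Cox7a1 is at 0 in PNMC library 1 and has no symbol there. PNMC library 3 is the lowest in 26 of 41 genes, and mean levels span from 0.914 for Cox7a1 to 368 for Atp5b.

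In complex IV the catalytic core is mitochondrially encoded and the nuclear subunits surround it. Cox8a, a small membrane subunit, had levels of 326, 342 and 265 in PNMC libraries 1, 2 and 3, against 301 and 307 in control libraries 1 and 2. The PNMC values enclosed both controls, with means of 311 ± 40.5 in PNMC and 304 ± 3.88 in controls (SD, n = 3 and 2) and a change of 0.024 (SE 0.130, 95% interval -0.26 to 0.30, limma adjusted p = 0.993). Cox5a, a subunit on the matrix side, had 110.0, 119 and 93.4 in the PNMC libraries, against 91.4 and 91.3 in the control libraries, a change of 0.22 (SE 0.153, limma adjusted p = 0.993). All PNMC values of Cox5a lay above both controls, that of PNMC library 3 by a small margin. Exons of Cox5a overlap Gm26631 on the other strand, and 32.0% of its 50-base windows occur in other genes' transcripts.

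Cox6a1, the widely expressed isoform of a subunit on the intermembrane side, had levels of 65.6, 59.8 and 44.8 in PNMC libraries 1, 2 and 3, against 71.6 and 77.7 in control libraries 1 and 2. All PNMC values lay below both controls, with a change of -0.41 (SE 0.185, 95% interval -0.80 to -0.0084, limma adjusted p = 0.986). With 1 library left out the change ranged from -0.52 without PNMC library 1 to -0.25 without PNMC library 3. Cox7a2, the widely expressed isoform of a membrane subunit, had 36.7, 34.0 and 22.4 in the PNMC libraries, against 33.2 and 51.8 in the control libraries, a change of -0.44 (SE 0.246, limma adjusted p = 0.993). The groups overlapped in Cox7a2, since PNMC libraries 1 and 2 lay above control library 1. Its change was -0.13 without control library 2, -0.23 without PNMC library 3 and -0.75 without control library 1. Cox7b had 12.3, 18.1 and 11.3 in the PNMC libraries, against 13.5 and 13.5 in the control libraries, and its PNMC values enclosed both controls. Cox5b, Cox6c and Cox7c had mean levels of 45.6, 65.0 and 6.45 over the 5 libraries and changes of -0.042, -0.043 and 0.16.

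The isoform pair Cox6b1 and Cox6b2 stood out by level. Cox6b1 is the form of most tissues, and Cox6b2 is known as the testis form. Cox6b2 had levels of 173, 186 and 115 in PNMC libraries 1, 2 and 3, against 149.7 and 166 in control libraries 1 and 2, a change of -0.028 (SE 0.184, 95% interval -0.42 to 0.37, limma adjusted p = 0.993). Cox6b1 had 34.6, 22.7 and 19.8 in the PNMC libraries, against 29.0 and 32.8 in the control libraries, a change of -0.29 (SE 0.237, limma adjusted p = 0.993). The testis form was above the common form in every library, by 5.00 to 8.20 times in PNMC libraries and 5.07 and 5.16 times in control libraries. Its share of the summed level of both was 85.9% ± 2.94 in PNMC and 83.6% ± 0.155 in controls (SD, n = 3 and 2). Divided by the median length of each gene's coding transcripts, 435 bases for Cox6b2 and 486 for Cox6b1, the share was 87.2% in PNMC and 85.1% in controls. Neither gene shared a 50-base window with another gene. Of 10 sperm and testis germ cell markers, 6 were under 1 in every library, among them Prm1, Tnp2 and Smcp, which were listed at 0. Prm2 and Ldhc were above 1 in every library, Prm2 at 5.19, 5.79 and 4.54 in the PNMC libraries, against 3.91 and 4.02 in the control libraries, and Ldhc at 1.749, 5.28 and 2.33 in the PNMC libraries, against 1.63 and 3.49 in the control libraries. The 10 markers summed to between 6.98 and 13.9 in PNMC libraries and between 6.49 and 9.36 in control libraries.

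The promoters of this pair are printed to show what lies upstream of the 2 isoform genes, beside those of Cox8a and Atp5b, which have the highest deposited levels of complexes IV and V. They are RefSeq windows on GRCm38.p6, from 250 bases before to 50 after each gene's start, 5′ to 3′ on the gene's strand. Cox6b2 is at chr7:4753045-4753344 on the minus strand, Cox6b1 at chr7:30626065-30626364 on the minus strand, Cox8a at chr19:7217567-7217866 on the minus strand and Atp5b at chr10:128083057-128083356 on the plus strand. Capitals mark CCAAT, the box bound by NF-Y, and CCGGAAG, a core of ETS and GABP sites, on either strand (ATTGG and CTTCCGG are the reverse complements). An NRF1 motif (GCGCA, any base, GCGC) and a YY1 motif (AAGATGGCG) were searched on both strands too and are in none of these 4 windows.
Cox6b2: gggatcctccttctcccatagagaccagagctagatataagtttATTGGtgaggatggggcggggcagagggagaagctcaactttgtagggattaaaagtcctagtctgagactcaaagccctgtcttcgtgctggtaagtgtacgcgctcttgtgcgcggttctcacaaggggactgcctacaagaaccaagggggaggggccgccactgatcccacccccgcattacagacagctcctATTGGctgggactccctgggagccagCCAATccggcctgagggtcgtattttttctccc
Cox6b1: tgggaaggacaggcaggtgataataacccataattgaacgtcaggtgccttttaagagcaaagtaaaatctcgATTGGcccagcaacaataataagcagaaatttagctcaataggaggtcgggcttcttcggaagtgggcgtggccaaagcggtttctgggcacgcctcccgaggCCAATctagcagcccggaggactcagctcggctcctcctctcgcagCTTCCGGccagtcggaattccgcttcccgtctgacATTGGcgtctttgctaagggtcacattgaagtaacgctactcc
Cox8a: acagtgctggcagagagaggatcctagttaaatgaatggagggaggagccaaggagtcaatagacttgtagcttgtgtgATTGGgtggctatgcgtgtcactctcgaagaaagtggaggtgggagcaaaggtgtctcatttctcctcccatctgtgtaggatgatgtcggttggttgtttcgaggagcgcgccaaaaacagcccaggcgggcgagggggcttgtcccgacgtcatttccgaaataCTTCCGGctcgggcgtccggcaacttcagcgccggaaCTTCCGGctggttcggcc
Atp5b: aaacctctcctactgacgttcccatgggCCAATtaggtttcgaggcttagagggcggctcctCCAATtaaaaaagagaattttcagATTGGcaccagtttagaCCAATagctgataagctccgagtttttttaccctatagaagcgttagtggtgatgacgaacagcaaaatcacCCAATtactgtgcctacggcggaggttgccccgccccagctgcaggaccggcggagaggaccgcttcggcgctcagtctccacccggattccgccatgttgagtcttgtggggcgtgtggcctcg
The windows of Cox6b2 and Cox6b1 each held 3 CCAAT matches, and that of Cox6b1 also held 1 ETS match. Cox8a held 2 ETS matches and 1 CCAAT match, and Atp5b held 5 CCAAT matches. No marked matches overlap one another.

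RefSeq windows were at hand for 33 members, among them 5 of complex III, 13 of complex IV and 14 of complex V. Some of these members, such as Cox7b2, were not tested. The ETS letters were in 33.3% of the members' windows, against 19.7% of the tested genes with a window and 9.93% of all genes with one. The NRF1 letters were in 24.2% of the members' windows, against 11.5% of the tested genes and 5.19% of all genes. Of the 8 members with them, 6 were in complex V, namely Atp5c1, Atp5g2, Atp5g3, Atp5h, Atp5k and Atp5o, and the other two were Cox6a1 and Uqcrc1. CCAAT was in 57.6% of the members' windows, against 44.3% of the tested genes, and the YY1 letters were in 6.06%, against 3.46% of the tested genes. A match of letters is a description and not a binding site.

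In the Cox4i, Cox6a and Cox8 families the widely expressed form made up most of the level in every library. Cox4i1 had levels of 54.1, 71.6 and 43.2 in PNMC libraries 1, 2 and 3, against 69.7 and 63.3 in control libraries 1 and 2, a change of -0.26 (SE 0.203, limma adjusted p = 0.993). Cox4i2, known from lung, had 0.214, 0.644 and 0.879 in the PNMC libraries, against 1.48 and 0.423 in the control libraries. Cox6a2, the form of heart and skeletal muscle, had 1.42, 4.39 and 4.36 in the PNMC libraries, against 2.72 and 4.77 in the control libraries, which left Cox6a1 a share of 94.1% ± 3.46 in PNMC and 95.3% ± 1.49 in controls (SD, n = 3 and 2). These shares differed by less than the spread between libraries. The muscle form Cox7a1 had 0, 1.35 and 1.008 in the PNMC libraries, against 0.709 and 1.51 in the control libraries, with overlapping groups, and the muscle form Cox8b was listed at 0 in all libraries. The testis forms Cox7b2 and Cox8c, unlike Cox6b2, were under 1 in every library. Cox7b2 was listed at 0 in the PNMC libraries, against 0.483 and 0 in the control libraries. Cox8c had 0, 0.497 and 0.178 in the PNMC libraries, against 0 and 0.902 in the control libraries.

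Cox7a2l, which joins complexes III and IV in supercomplexes, had levels of 31.8, 37.4 and 40.7 in PNMC libraries 1, 2 and 3, against 42.5 and 34.8 in control libraries 1 and 2, a change of -0.076 (SE 0.191, limma adjusted p = 0.993). The ratio of Cox7a2 to Cox7a2l was 1.15, 0.908 and 0.550 in the PNMC libraries, against 0.781 and 1.49 in the control libraries, so as deposited neither gene was above the other throughout. Cox7a2 held 45.1% ± 9.45 in PNMC and 51.1% ± 10.8 in controls of the Cox7a family's level (SD, n = 3 and 2), and 56.8% in PNMC and 62.4% in controls after division by length. The shares overlapped between groups.

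**Figure D4:**
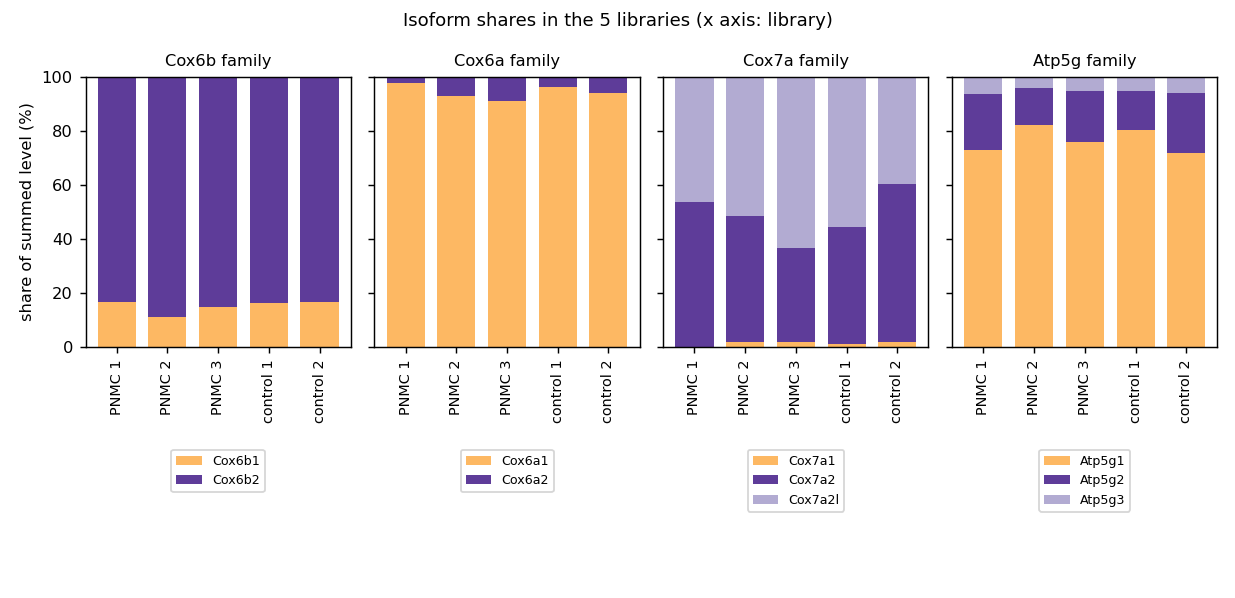
Share of each isoform in the summed deposited level of its family (percent) in PNMC libraries 1 to 3 and control libraries 1 and 2, for the Cox6b, Cox6a, Cox7a and Atp5g families. Cox6b2 and Cox6a1 hold most of their family's level in every library, with means over PNMC libraries of 85.9% and 94.1%, while the Cox7a family is divided between Cox7a2 and Cox7a2l.

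Complex V has an F1 head that makes ATP, of the subunits alpha (Atp5a1), beta (Atp5b), gamma (Atp5c1), delta (Atp5d) and epsilon (Atp5e), and a membrane part with a peripheral stalk. Atp5b, which carries the catalytic sites, had levels of 369.9, 339.6 and 394 in PNMC libraries 1, 2 and 3, against 358 and 378 in control libraries 1 and 2. The means were 368 ± 27.0 in PNMC and 368 ± 14.0 in controls (SD, n = 3 and 2), with a change of -0.0036 (SE 0.114, 95% interval -0.25 to 0.24, limma adjusted p = 0.997). PNMC library 3, the lowest for most members, was the highest for Atp5b. Atp5a1, singled out after its values were seen, had 56.1, 55.8 and 52.5 in the PNMC libraries, against 50.6 and 49.5 in the control libraries, a change of 0.13 (SE 0.162, limma adjusted p = 0.993). All PNMC values of Atp5a1 lay above both controls. Atp5c1 averaged 56.9 ± 5.54 in PNMC and 53.4 ± 5.53 in controls, Atp5d averaged 3.85 ± 1.83 in PNMC and 4.32 ± 0.521 in controls, and Atp5e averaged 8.96 ± 1.25 in PNMC and 8.35 ± 2.99 in controls (SD, n = 3 and 2).

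The peripheral stalk and membrane subunits had fitted changes below 0 in 12 of 12 genes, with a median of -0.30, against 56.9% and -0.048 in all genes tested. The F1 head, counted with gamma, delta and epsilon, had them in 2 of 5, with a median of 0.088. This division was made after the values were seen and has no test. PNMC library 3 was the lowest library in 10 of the 12 stalk and membrane genes and in Atp5d alone of the head. All 12 stalk and membrane genes stayed below 0 without PNMC library 1 or 2 and after quantile normalisation, and 11 did without control library 1. Without PNMC library 3, 8 of the 12 were below 0, or 66.7%, against 55.6% of all genes then tested, with a median of -0.13. Without control library 2, again 8 of the 12 were below 0, against 53.4% of all genes then tested, with a median of -0.14. After median scaling 10 of the 12 were, or 83.3%, against 46.1% of all genes. The head turned as well: without control library 1, 4 of its 5 genes were below 0, with a median of -0.042.

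Atp5f1, subunit b of the peripheral stalk, had levels of 54.4, 49.9 and 52.9 in PNMC libraries 1, 2 and 3, against 58.2 and 75.4 in control libraries 1 and 2. All PNMC values lay below both controls, with a change of -0.33 (SE 0.172, 95% interval -0.70 to 0.035, limma adjusted p = 0.988). Atp5j, coupling factor 6 of the same stalk, had 8.72, 10.1 and 12.0 in the PNMC libraries, against 13.0 and 13.3 in the control libraries, also without overlap, a change of -0.34 (SE 0.245, limma adjusted p = 0.993). In these 2 genes PNMC library 3 was not the lowest. Without control library 2 the change of Atp5f1 was -0.15, and without control library 1 it was -0.52. Exons of Atp5f1 overlap Wdr77 and exons of Atp5j overlap Gabpa, each on the other strand, and reads from those overlaps cannot be told apart. Windows shared with any other gene were 38.7% of Atp5f1 and 16.3% of Atp5j. Gabpa, which encodes a subunit of the ETS factor GABP, averaged 86.2 ± 12.6 in PNMC and 78.6 ± 23.2 in controls (SD, n = 3 and 2).

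Atp5md, a small membrane subunit also known as DAPIT, had levels of 7.68, 9.82 and 2.67 in PNMC libraries 1, 2 and 3, against 9.16 and 11.3 in control libraries 1 and 2. Its change was -0.67 (SE 0.393, limma adjusted p = 0.993), and PNMC library 2 lay between the controls. The change was -0.21 without PNMC library 3 and -0.99 without PNMC library 2. Atp5l, subunit g, was singled out after its values were seen and had 20.1, 20.0 and 7.57 in the PNMC libraries, against 16.2 and 20.3 in the control libraries. PNMC library 3 stood apart from the other libraries in Atp5l, and the groups overlapped. Other genes' transcripts hold 84.85% of its 50-base windows, so its level is uncertain. The other subunits outside the c ring, Atp5h, Atp5j2, Atp5k, Atp5mpl and Atp5o, had changes between -0.33 and -0.034, all with overlapping groups.

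The c ring, which turns with the proton flow, is encoded by Atp5g1, Atp5g2 and Atp5g3, whose mature proteins are identical. Atp5g1 had levels of 107, 160.4 and 96.7 in PNMC libraries 1, 2 and 3, against 133 and 137 in control libraries 1 and 2, a change of -0.19 (SE 0.190, limma adjusted p = 0.993). Atp5g2 had 30.9, 26.9 and 23.7 in the PNMC libraries, against 23.9 and 42.8 in the control libraries, a change of -0.24 (SE 0.242, limma adjusted p = 0.993). Atp5g3 had 8.90, 7.58 and 6.61 in the PNMC libraries, against 8.54 and 11.3 in the control libraries, a change of -0.33 (SE 0.269, limma adjusted p = 0.993). The groups overlapped in all 3 genes, and the change of Atp5g1 was -0.049 without PNMC library 3 and -0.41 without PNMC library 2. As deposited, Atp5g1 held 77.1% ± 4.82 in PNMC and 76.1% ± 6.15 in controls of their summed level (SD, n = 3 and 2). Divided by transcript length, Atp5g1 held 43.8% in PNMC and 42.6% in controls, and Atp5g2 held 45.6% in PNMC and 46.0% in controls, so which of them leads depends on whether the deposited levels are already per length. Other genes' transcripts hold 87.4% of the 50-base windows of Atp5g2.

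Reads of some members could be shared with other genes. In GENCODE, 13 members have exons that overlap another gene, and more than 50% of the 50-base windows of Atp5g2, Atp5l, Cox7c and Atp5h occur elsewhere, while 18 members share no window. Levels of those 4 genes and of overlapping pairs are uncertain, since how the authors counted such reads is not stated.

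The data bounded changes more closely for some complexes than for others. The 95% interval stayed within 1 log2 unit on either side of 0 for 5 of 9 members of complex III, 12 of 14 of complex IV and 15 of 17 of complex V. Over all members this share was 80.5%, against 61.4% of the genes tested. As deposited, the median of the mean levels was 10.8 in complex III, 41.5 in complex IV and 16.8 in complex V, against 7.09 over all tested genes. Cox8a, Cox6b2, Cox5a, Atp5b and Atp5g1 averaged at least 100, or 12.2% of the tested members, against 5.89% of all tested genes.

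The mitochondrially encoded partners had high levels and small differences. Cytochrome b of complex III, mt-Cytb, had levels of 9670.3, 11144 and 9749.8 in PNMC libraries 1, 2 and 3, against 10928 and 10504 in control libraries 1 and 2, a change of -0.076 (SE 0.0729, limma adjusted p = 0.993). In the complex IV core, mt-Co1 averaged 1742 ± 237 in PNMC and 1805 ± 209 in controls, mt-Co2 averaged 898 ± 143 in PNMC and 905 ± 15.4 in controls, and mt-Co3 averaged 2786 ± 379.6 in PNMC and 2787 ± 78.9 in controls (SD, n = 3 and 2). In complex V, mt-Atp6 averaged 3722 ± 479 in PNMC and 3709 ± 162 in controls, and mt-Atp8 averaged 2318 ± 196 in PNMC and 2288 ± 46.6 in controls (SD, n = 3 and 2). The median change of the 6 genes was -0.016, and the groups overlapped in each. Their median deviation was -0.11, 0.17 and -0.10 in the PNMC libraries, against 0.0041 and 0.024 in the control libraries, so PNMC libraries 1 and 3 lay close together.

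None of the assembly factors passed the adjusted threshold. Of 6 complex III factors, 5 had changes below 0, with a median of -0.31. Uqcc1 averaged 10.6 ± 1.92 in PNMC and 7.64 ± 2.56 in controls, and Lyrm7 averaged 0.724 ± 0.789 in PNMC and 1.39 ± 0.107 in controls (SD, n = 3 and 2), with overlapping groups in both. Of 24 tested complex IV factors, 17 had changes below 0, with a median of -0.14. This list includes Ndufa4, which is counted neither in complex I nor among the members. Cmc2 had 12.9, 11.1 and 15.3 in the PNMC libraries, against 6.79 and 10.1 in the control libraries, a change of 0.58 (SE 0.264, limma adjusted p = 0.986). Coa3 had 12.9, 13.1 and 11.5 in the PNMC libraries, against 10.4 and 6.63 in the control libraries, a change of 0.53 (SE 0.261, limma adjusted p = 0.986). In both genes all PNMC values lay above both controls. Among the 24 this held for 3 genes, while in 6 all PNMC values lay below both controls. Groups without overlap made up 37.5% of the 24, against 19.9% of the genes tested. Of 8 tested factors and partners of complex V, 6 had changes below 0, with a median of -0.16. Dmac2l, also called ATP synthase factor B, had 0.824, 0.342 and 0.382 in the PNMC libraries, against 5.17 and 3.04 in the control libraries, a change of -1.73 (SE 0.398, limma adjusted p = 0.595). Atpif1, which inhibits the reverse reaction of the ATP synthase, had 9.84, 10.5 and 17.1 in the PNMC libraries, against 17.5 and 19.3 in the control libraries, a change of -0.56 (SE 0.263, limma adjusted p = 0.986). In Dmac2l and Atpif1 all PNMC values lay below both controls, and no other groups of these 8 genes were separated, or 25% against 19.9% of the genes tested.

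In complex I, 27 of 35 tested genes had changes below 0, or 77.1%, against 56.9% of all genes tested, with a median of -0.16. Without control library 2 this was 18 of 33 genes, or 54.5%, against 53.4% of all genes then tested, with a median of -0.0082. Without control library 1 the median was -0.38, and without PNMC library 3 it was -0.097. Ndufa13 averaged 5.98 ± 1.12 in PNMC and 10.3 ± 2.97 in controls (limma adjusted p = 0.967). In complex II, the membrane enzyme shared with the citric acid cycle, all 4 genes had changes below 0, with a median of -0.34, and the groups overlapped in all 4. Complex II stood at 0.064, -0.18 and -0.33 in the PNMC libraries, against 0.052 and 0.45 in the control libraries, so control library 2 was far above the others and PNMC library 1 lay level with control library 1. Sdhb averaged 5.87 ± 2.05 in PNMC and 9.53 ± 2.98 in controls, and Sdhd averaged 5.48 ± 0.959 in PNMC and 8.29 ± 4.198 in controls (SD, n = 3 and 2). Of 12 tested regulators of nuclear respiratory genes, 6 had changes below 0 and 6 above, with a median of -0.0076. Gabpb2, a partner of Gabpa, had 1.46, 2.41 and 2.24 in the PNMC libraries, against 4.24 and 5.07 in the control libraries, a change of -0.91 (SE 0.342, limma adjusted p = 0.967), with all PNMC values below both controls. Groups did not overlap in 16.7% of the 12 regulators, against 19.9% of the genes tested. Tfam, which packages mitochondrial DNA, had 3.91, 4.597 and 6.69 in the PNMC libraries, against 4.06 and 1.81 in the control libraries, a change of 0.66 (SE 0.360, limma adjusted p = 0.993), with overlapping groups.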

How the data were processed

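The deposited table holds 1 normalised signal per gene symbol and library. Per the labels, RNA was isolated with TRIzol and sequenced as Smart-seq2 libraries, which keep no strand. Per the submitters' processing notes, Trimmomatic, HISAT2 2.0.5, HTSeq, DESeq2 1.16.1 and GRCm39 were used. The unit and the step that made the values are not stated, and read depth is unknown, so no counting error is given.

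Columns were matched to samples by title. Values were transformed to log2(value + 1), with a minimum of 1 in 2 libraries, and fitted with limma 3.58.1 (R 4.3.3; trend and robust variances, no covariate), which was first tested on simulated data. Shares, medians and counts were computed with Python 3.11.15. Transcript lengths, exon overlaps and 50-base windows came from GENCODE M21 on GRCm38, which holds 44 of the 45 members, and promoters from RefSeq on GRCm38.p6. The members and lists were chosen with earlier results of these data known. Values per library are given for the 3 members of each complex with the highest mean, the 3 with the smallest p, isoform families, Cyc1 and Cycs, for the 6 mitochondrial genes in part as means, and for genes said to be chosen later. Of each pathway list the 2 genes with the smallest p are named, except 1 gene of complex I that is not reported here. Lists have no test of their own.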

Additional observations from a re-analysis of the deposited data

How the results depend on the processing

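In the 12 alternatives run on them, no member passed the adjusted threshold, and the lowest adjusted p of a named member was 0.679. The 17 named members kept their direction in 190 results and changed it in 11. Part of this agreement was fixed beforehand. Leaving out the filter, raising its minimum or fitting without trend and robust variances cannot move a fitted change. The replicate block gave the same changes as leaving out PNMC library 3, so those results were counted again. After median scaling the change of Atp5b was 0.083 and that of Cox6b2 0.058, and with the replicate block that of Cox6b2 was 0.18. With 1 library left out, Atp5b ranged from -0.054 to 0.052, Cox6b2 from -0.16 to 0.18, Cox8a from -0.048 to 0.13 and Uqcrc2 from -0.54 to 0.70; the cause was not tested. The medians then ranged from -0.48 to -0.085 in complex III, from -0.18 to 0.019 in complex IV and from -0.32 to -0.049 in complex V. Median scaling gave 61.0% of the members below 0, against 46.1% of all genes. Quantile normalisation gave 78% of the members, against 50.3% of all genes, with 10 of 14 in complex IV. Members at an unadjusted limma p under 0.05 made up 2.27% with no filter, against 4.16% of all genes. With a minimum of 10 they made up 3.23%, against 3.7%, and with median scaling 2.44%, against 5.19%. With limma without trend and robust variances the shares were 2.44% of members and 5.85% of all genes. With the replicate block they were 0% and 4.27%. Without PNMC library 1, 2 or 3, members stood at 7.32%, 14.6% and 2.44%, against 4.79%, 6% and 4.11% of all genes. With quantile normalisation the shares were 4.88% and 4.83%, and with 0.1 added in place of 1 they were 4.88% and 4.44%. Fits without a control library leave 1 control, so no such share is given for them. The control share of Cox6b2 was 83.9% after quantile normalisation and 85.1% per transcript length, which was chosen after seeing the data. Whether the replicate numbers pair the libraries could not be settled. Deviations of same-numbered libraries correlated at -0.058 and -0.043 for numbers 1 and 2. With 2 control libraries, the deviations of one mirror those of the other, so both values rest on 1 control contrast. PNMC library 3 has no partner in the replicate block, so the block repeats the medians found without that library. These were -0.085 in complex III, -0.034 in complex IV and -0.049 in complex V. With 2 control libraries and unknown depth, changes of genes with low levels are bounded least closely.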
